A study of Mus musculus with 3 samples.

Results

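The 10 genes described here are repressors and outputs of the circadian clock: Per1, Per2, Per3, Nr1d1, Nr1d2, Dbp, Tef, Hlf, Ciart and Bhlhe41. They were taken by gene symbol from the 32285 genes of the files, and all 10 were found. They were chosen by their levels in these same libraries, so every difference between libraries below is a description and none is a test. RNA of single nuclei was measured in the submandibular gland, a major salivary gland, of wild-type mice, to compare cell identities and signalling between treatments. There were 3 groups with 1 library each: a non-irradiated gland labelled as having no treatment, an irradiated gland given saline, and an irradiated gland given pilocarpine, which activates muscarinic receptors and stimulates secretion of saliva. The titles place both irradiated groups at day 90 after irradiation and the pilocarpine between day 30 and day 90, whereas the protocol gives day 93 for both. The labels name no saline for the non-irradiated group, and they give no dose, no number of mice, no sex and no hour of collection. A difference between groups can therefore not be told apart from a difference between libraries, in saline or in hour of the day.

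In mammalian cells the clock is a feedback loop of transcription. Arntl (BMAL1) pairs with Clock or Npas2 and switches on genes through E-boxes, and the Per proteins, together with the Cry proteins, return to the nucleus and block that pair. In a linked loop the Nr1d receptors (REV-ERB) repress Arntl and Npas2. Dbp, Tef and Hlf carry the rhythm to further genes by binding D-boxes, where Nfil3 acts as a repressor. The levels of these RNAs change over the day in most tissues, salivary glands included.

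The files held 32511 barcodes, of which 27633 nuclei with 88101885 unique molecular identifiers (UMIs, each counting 1 captured RNA molecule) passed both limits, a minimum of 500 detected genes and a maximum of 5% mitochondrial UMIs. These numbered 10635 without irradiation, 8622 with saline and 8376 with pilocarpine, with medians of 1536, 2113 and 2048 UMIs in that order. Of the nuclear barcodes, 75 pairs were shared between libraries. Nuclei were clustered without any gene of the lists described here and were named from marker genes. Acinar-like nuclei, of the cells that make saliva, numbered 6343, 3460 and 4626. The other classes with at least 300 nuclei in every library were fibroblast-like, myoepithelial-like and duct-like, and endothelial-like, ionocyte-like, macrophage-like and cycling-like nuclei had at least 100. Clusters without a name held 16.5%, 15.3% and 10.6% of the nuclei. Levels are UMIs of a gene per 1000000 UMIs of the class in a library (CPM) with an exact Poisson 95% interval. Ratios of CPM have an exact conditional binomial 95% interval. Both intervals cover counting error only, since no group had a second library, and no test between groups was possible.

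The promoters of the members are shown first because clock proteins act on most of these genes through short motifs near the start site. RefSeq windows on GRCm38.p6, from 250 bases before to 50 after a start, were found for 9 members, with 11 windows in all. No window was found for Per2, so its promoter was not searched. They were searched on both strands for the E-box CACGTG, the D-box TTATGTAA or TTACGTAA, and the cyclic AMP response element TGACGTCA. Of 32851 windows of that length in the table, 7.15% held an E-box, 1.06% a D-box and 1.79% a response element. An E-box was present in Ciart, Per1, Bhlhe41 and Tef, a D-box in Per3 and a response element in Hlf. The windows of Nr1d1, Nr1d2 and Dbp held none of these letters. The stretches below run 5′ to 3′ on the strand of the gene, with the motifs in capitals.
Ciart, chr3:95882242-95882369, minus strand: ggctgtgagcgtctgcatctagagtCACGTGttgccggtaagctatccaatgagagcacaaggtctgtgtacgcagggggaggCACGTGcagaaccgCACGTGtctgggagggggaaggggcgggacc
Per1, chr11:69098758-69098813, plus strand: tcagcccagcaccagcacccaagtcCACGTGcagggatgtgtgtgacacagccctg
Bhlhe41, chr6:145865543-145865598, minus strand: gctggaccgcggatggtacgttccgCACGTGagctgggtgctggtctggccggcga
Tef, chr15:81811251-81811306, plus strand: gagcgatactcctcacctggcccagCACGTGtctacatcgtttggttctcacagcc
Per3, chr4:151044791-151044895, minus strand: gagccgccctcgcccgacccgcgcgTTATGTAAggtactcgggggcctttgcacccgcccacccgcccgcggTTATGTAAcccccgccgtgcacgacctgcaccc
Hlf, chr11:90390894-90390951, minus strand: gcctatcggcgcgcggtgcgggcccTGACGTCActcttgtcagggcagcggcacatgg
The Ciart window held 3 E-boxes, a number reached by 29 of all windows, and the Per3 window held 2 D-boxes, reached by 8. The stretches of Per1 and Tef lie inside the annotated genes, at the second start of Tef. That of Per3 lies before the gene and inside Camta1, and those of Ciart, Bhlhe41 and Hlf reach from before the gene into its annotated span. By the RefSeq starts of the windows, the stretches of Ciart and Bhlhe41 end before the start. A match describes letters only and says nothing of binding in these glands.

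The Per genes, the repressors that pair with Cry proteins, were all higher in acinar-like nuclei of both irradiated libraries than in the non-irradiated one. Per2 (ENSMUSG00000055866, chr1:91415982-91459324, GRCm38) stood apart. It measured 17.0 CPM (14.7 to 19.5) in the non-irradiated library, 116 CPM (109 to 122) with saline and 78.9 CPM (74.0 to 84.0) with pilocarpine. The irradiated + saline level was thus 6.80 times the non-irradiated one (5.85 to 7.95), and the pilocarpine level was 4.64 times it (3.98 to 5.44). By the size of the log2 ratio of CPM + 1, Per2 was number 14 from the top of 11926 genes measured in the first of these comparisons. Measured means at least 50 UMIs of a gene in both libraries together within the class. Between the irradiated libraries Per2 was 1.46 times lower with pilocarpine (1.35 to 1.59).

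Per1 (chr11:69095217-69109960), the Per gene that responds fastest to outside signals in many cells, measured 52.6, 108 and 79.7 CPM in acinar-like nuclei without irradiation, with saline and with pilocarpine. It was 2.05 times higher with saline than without irradiation (1.86 to 2.27) and 1.35 times lower with pilocarpine than with saline (1.24 to 1.48). Per3 (chr4:151003652-151044665) measured 142, 295 and 246 CPM in that order, with a ratio of 2.08 (1.96 to 2.21) for saline over non-irradiated. It was 1.20 times lower with pilocarpine than with saline (1.14 to 1.26). All 3 Per genes therefore had the same order of libraries, with the non-irradiated lowest, pilocarpine between and saline highest, and no 2 counting intervals of a gene overlapped. Per3 lies on the same strand as Camta1, which overlaps it, so its count is uncertain to the extent that the authors' counting could assign shared reads to either gene.

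Ciart and Bhlhe41 are repressors outside the Per and Cry families. Ciart (CHRONO, chr3:95878503-95882251), which represses the Arntl and Clock pair, measured 11.9 CPM (10.0 to 14.1), 37.3 CPM (33.7 to 41.1) and 29.3 CPM (26.3 to 32.4) in the same order of libraries. Its ratio of saline to non-irradiated was 3.13 (2.58 to 3.83), the second highest of the members after Per2, and with pilocarpine it was 1.27 times lower than with saline (1.10 to 1.47). Bhlhe41 (DEC2, chr6:145858243-145865558), which competes for E-boxes, measured 11.8, 23.4 and 23.8 CPM. Both irradiated libraries were close to each other and about equally far above the non-irradiated one, with ratios of 1.98 (1.60 to 2.45) for saline and 2.01 (1.64 to 2.48) for pilocarpine. For Bhlhe41 the ratio of pilocarpine to saline was 1.02 with an interval from 0.857 to 1.21.

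The Nr1d receptors differed from each other in the order of libraries. Nr1d1 (REV-ERBα, chr11:98767932-98775333) was the only one of the 9 members measured in acinar-like nuclei that was lower with saline than without irradiation. Its levels were 91.9 CPM (86.5 to 97.6) without irradiation, 70.8 CPM (65.9 to 76.1) with saline and 108 CPM (102 to 114) with pilocarpine. It was 1.30 times lower with saline than without irradiation (1.18 to 1.43), and 1.52 times higher with pilocarpine than with saline (1.39 to 1.67). Nr1d2 (REV-ERBβ, chr14:18204054-18239127) measured 287, 364 and 345 CPM and followed the order of the Per genes with small steps. Its ratio was 1.27 for saline over non-irradiated (1.21 to 1.33) and 0.946 for pilocarpine over saline (0.905 to 0.988). Nr1d1 overlaps Thra on the opposite strand, so reads of the 2 genes can be told apart only where counting uses strand.

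Dbp, Tef and Hlf encode the activators that bind D-boxes. Dbp (chr7:45705088-45710203) measured 148, 213 and 205 CPM in acinar-like nuclei, 1.44 times higher with saline than without irradiation (1.35 to 1.53), while the ratio of pilocarpine to saline was 0.966 with an interval from 0.912 to 1.02. Tef (chr15:81802421-81826863) measured 417, 573 and 507 CPM, the highest number of UMIs of any member in this class, with a ratio of 1.37 for saline over non-irradiated (1.32 to 1.43). It was 1.13 times lower with pilocarpine than with saline (1.09 to 1.17). Hlf (chr11:90336536-90390895) gave 11, 7 and 13 UMIs in all acinar-like nuclei of the 3 libraries, or 0.949, 0.654 and 1.05 CPM, and was not measured there. Overlapping genes on the opposite strand are annotated for Dbp (Sphk2), Tef (Gm17597), Ciart (C920021L13Rik) and Bhlhe41 (Gm43909). Levels are not corrected for gene length, and apart from that count of Tef they are not compared between genes here.

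**Figure D1:**
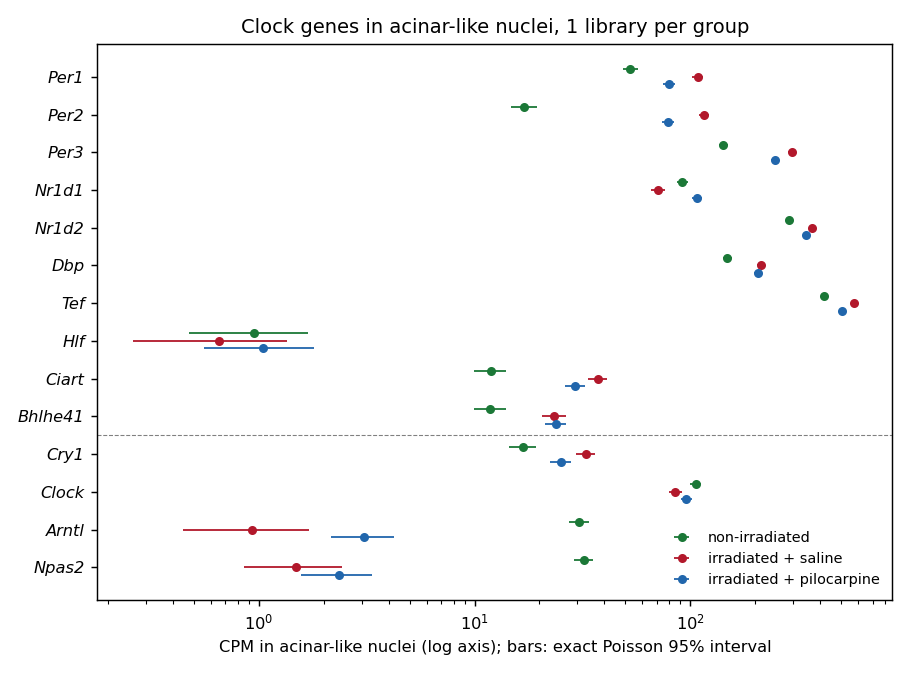
Levels in acinar-like nuclei on a log axis in CPM for the 10 members (above the dashed line) and 4 partner genes (below it), 1 point per library with its exact Poisson 95% interval. Per1, Per2, Per3 and Ciart are lowest in the non-irradiated library and highest with saline, Nr1d1 is lowest with saline, and Arntl and Npas2 lie far to the right in the non-irradiated library.

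Of the 9 members measured in acinar-like nuclei, 8 were higher with saline than without irradiation and 5 of them, Per1, Per2, Per3, Ciart and Bhlhe41, were at least 1.5 times higher on the scale of CPM + 1. Among all 11926 genes measured there, 4.79% were at least 1.5 times higher and 4.52% at least 1.5 times lower. The median log2 ratio over the members was 0.93, and over all genes it was -0.04. Comparing pilocarpine with saline, 2 members were higher and 7 lower, with a median of -0.18 beside 0.05 over all 12004 genes. Nr1d1 was the single member at least 1.5 times higher, against 1.71% of all genes, and no member was at least 1.5 times lower, against 1.2%. Nr1d1 lies at the edge of that fold, with a log2 ratio of 0.60. That ratio became 0.09 when free RNA was subtracted, taken as the level of the lowest class in each library. For Nr1d1 the lowest class was ionocyte-like with saline (34.1 CPM) and duct-like with pilocarpine (68.7 CPM), so different classes were subtracted. Comparing pilocarpine with the non-irradiated library, all 9 measured members were higher and Per1, Per2, Per3, Ciart and Bhlhe41 were at least 1.5 times higher, against 5.71% of 12109 genes. None was 1.5 times lower, against 3.11%. Per1 lies at the edge of the fold there, with a log2 ratio of 0.59 that was 0.52 with a pseudocount of 10 CPM, and the count ranged from 4 to 6 over the alternatives. The median there was 0.59, and the lowest member by log2 ratio, Nr1d1, was number 2910 from the top of 12109 genes. These comparisons share libraries, so their values are set side by side and are not independent of each other.

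**Figure D2:**
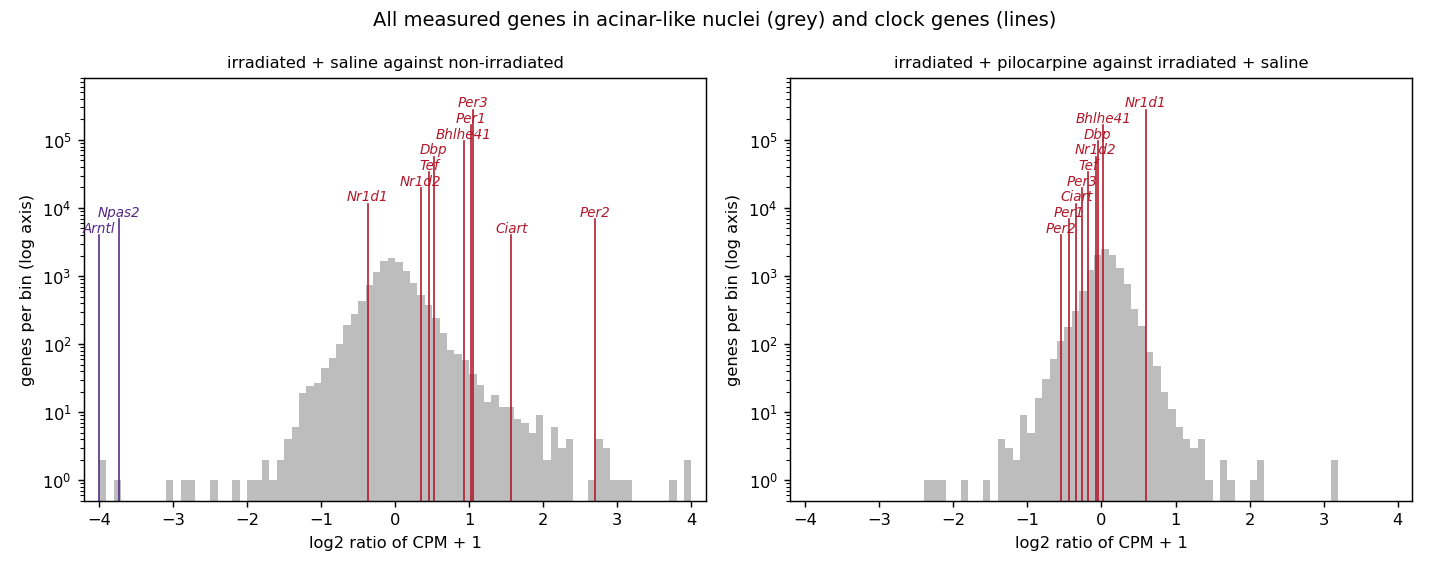
Log2 ratios of CPM + 1 of all measured genes in acinar-like nuclei (grey bars, number of genes per bin on a log axis), with the members as red lines and Arntl and Npas2 as purple lines, for saline against non-irradiated (left) and pilocarpine against saline (right). Ratios beyond 4 in size are drawn at 4. On the left Per2 lies at 2.70 and Ciart at 1.57 above most genes, and on the right the members lie between -0.55 and 0.60.

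Arntl and Npas2 had the opposite order of libraries to the Per genes. Arntl, the obligatory partner of the activating pair, gave 355 UMIs in non-irradiated acinar-like nuclei (30.6 CPM, 27.5 to 34.0). In the saline library it gave 10 UMIs (0.934 CPM, 0.448 to 1.72), and with pilocarpine 38 UMIs (3.07 CPM, 2.17 to 4.22). It was thus 32.8 times lower with saline than without irradiation (17.6 to 68.9) and 9.96 times lower with pilocarpine (7.12 to 14.3). Npas2, an alternative partner of Arntl, gave 372, 16 and 29 UMIs and was 21.5 times lower with saline than without irradiation (13.04 to 37.9). Arntl and Npas2 were numbers 2 and 3 from the bottom of all 11926 genes in that comparison. Clock itself measured 106, 85.3 and 95.7 CPM, and was 1.24 times lower with saline than without irradiation (1.14 to 1.35).

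Rora, a nuclear receptor that activates Arntl, measured 139, 139 and 131 CPM. Nfil3, the repressor at D-boxes, measured 43.5, 30.8 and 29.3 CPM and was 1.41 times lower with saline than without irradiation (1.22 to 1.62). Among the other repressors, Cry1 followed the Per genes with 16.7, 32.7 and 25.1 CPM and a ratio of 1.95 for saline over non-irradiated (1.64 to 2.34). Cry2 measured 76.1, 87.7 and 86.0 CPM and Bhlhe40 66.5, 82.3 and 85.6 CPM. This list of other repressors and regulators of Per and Cry proteins had 9 measured genes for saline against non-irradiated. Cry1 alone was at least 1.5 times higher on the scale of CPM + 1, against 4.79% of all genes. None was at least 1.5 times lower on that scale, against 4.52%, and the median log2 ratio was -0.05. With so few genes, these counts say little about the list. Fbxl21, a ubiquitin ligase subunit for Cry proteins, had the lowest ratio of CPM in the list, 0.589 (0.347 to 0.979). It rests on 25 UMIs with saline and 46 without irradiation. At 2.34 and 3.97 CPM, Fbxl21 did not reach the fold on the scale of CPM + 1.

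Acinar-like nuclei of the groups lay in different clusters. Clusters 1 and 3 held 88.5% of the non-irradiated acinar-like nuclei, and clusters 0 and 2 held 87.5% of those with saline and 83.8% of those with pilocarpine. The remaining cluster 16 was led by interferon response genes such as Rsad2, Cmpk2 and Usp18. Per1, Per2, Per3, Nr1d2, Dbp, Tef, Ciart and Bhlhe41 were higher with saline than without irradiation in 5 of 5 clusters, and Arntl was lower in 5 of 5. Per2 measured 9.66 to 38.2 CPM over the 5 clusters in the non-irradiated library and 96.8 to 135 CPM with saline. With pilocarpine Per2 measured 68.6 to 105 CPM, and it was lower than with saline in 5 of 5 clusters. Nr1d1 was higher with saline than without irradiation in 2 clusters and lower in 3, whereas it was higher with pilocarpine than with saline in 5 of 5. Bhlhe41 was higher with pilocarpine than with saline in 3 clusters and lower in 2.

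**Figure D3:**
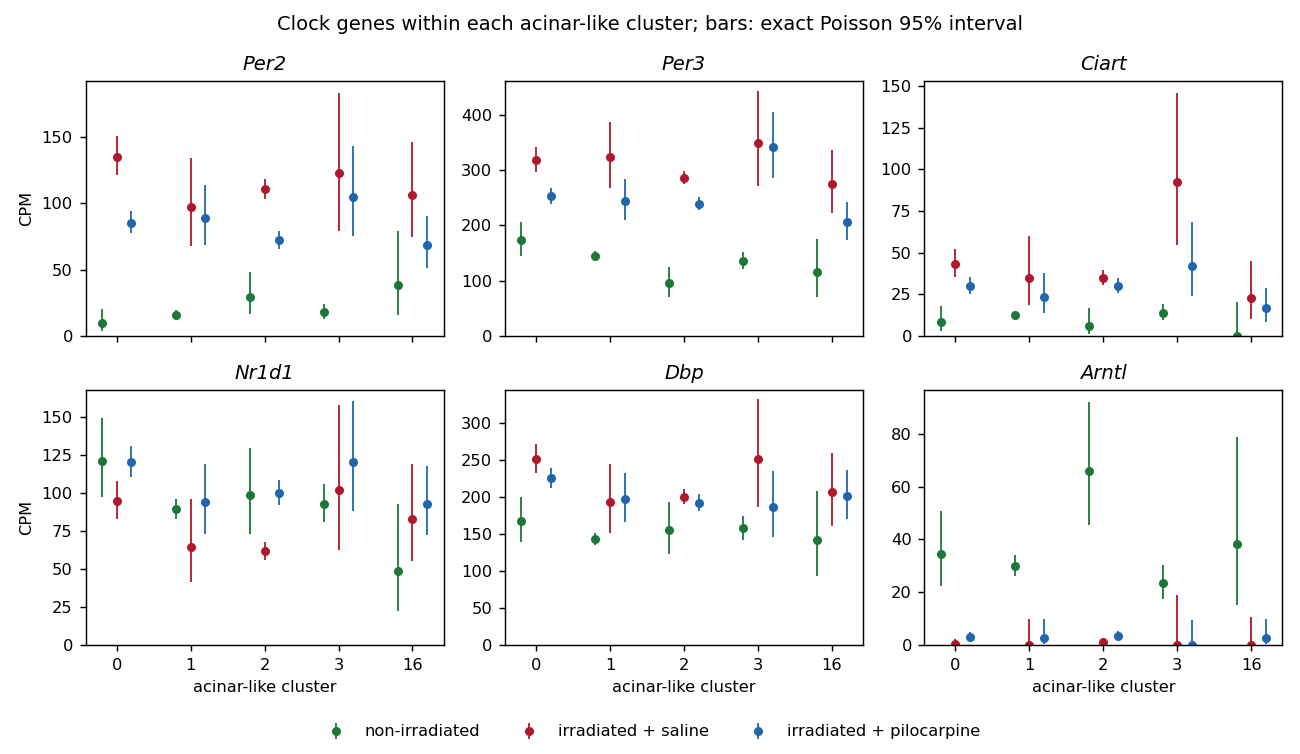
Levels in CPM of 5 members and Arntl in each of the 5 acinar-like clusters, 1 point per library with its exact Poisson 95% interval. In every cluster the green non-irradiated points are lowest for Per2 and Per3 and highest for Arntl, while the libraries change order between clusters for Nr1d1.

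Over all 8 classes, each of the 3 Per genes was highest with saline in 7 and with pilocarpine in 1. The exception was the ionocyte-like class for Per1 and Per3 and the duct-like class for Per2. Per1 was lowest without irradiation in 7 classes and with pilocarpine in duct-like nuclei, at 37.1, 44.6 and 27.5 CPM without irradiation, with saline and with pilocarpine. Per2 and Per3 were higher with saline than without irradiation in 8 of 8 classes, with a ratio interval above 1 in all 8. Per1 was higher in 8 of 8, with the interval above 1 in 5. In fibroblast-like nuclei Per2 measured 16.2, 79.6 and 57.5 CPM in the non-irradiated, saline and pilocarpine libraries, a ratio of 4.92 for saline over non-irradiated (2.88 to 8.96). In myoepithelial-like nuclei, of the contractile cells around the acini, it measured 32.8, 83.4 and 68.7 CPM with a ratio of 2.54 (1.58 to 4.22). In duct-like nuclei it measured 17.0, 56.2 and 56.9 CPM with a ratio of 3.31 (1.98 to 5.92). Pilocarpine against saline gave lower Per2 in 7 of 8 classes, with the interval below 1 in 4 of them.

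In fibroblast-like nuclei 8 members were measured for saline against non-irradiated, all were higher, and Per1, Per2, Per3 and Hlf were at least 1.5 times higher, against 10.2% of all genes there. In myoepithelial-like nuclei all 8 measured members were higher as well, and Per1, Per2, Per3, Nr1d1 and Dbp were at least 1.5 times higher, against 7.22% of all genes. The median log2 ratios of the measured members were 0.74 and 0.69. The lowest member was Nr1d1 in fibroblast-like nuclei, number 1331 from the top of 7050 genes. In myoepithelial-like nuclei it was Hlf, number 1839 of 5529. In duct-like nuclei 7 of 8 measured members were higher, but only Per2 reached 1.5 times, against 6.38% of all genes, and the median was 0.23. The lowest member there was Nr1d1, number 4507 from the top of 8478 genes. No member was at least 1.5 times lower in these 3 classes, against 11.8%, 7.74% and 7.48% of all genes in fibroblast-like, myoepithelial-like and duct-like nuclei. Duct-like nuclei were the shallowest of the 4 largest classes, with medians of 1224, 1577 and 1248 UMIs. They held 668, 1653 and 349 nuclei, in 2 clusters with unequal shares of each library. Cluster 5 held 475, 917 and 291 of them and cluster 8 held 193, 736 and 58. Per2 was higher with saline than without irradiation in both clusters. Per3 measured 87.5 and 89.5 CPM without irradiation and with saline in cluster 5, and 25.4 and 102 CPM in cluster 8, the first of these from 8 UMIs. Nr1d1 and Dbp were lower with saline in cluster 5 and higher in cluster 8.

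With pilocarpine, all 9 measured members were lower than with saline in fibroblast-like and in myoepithelial-like nuclei, with medians of -0.23 and -0.28. By log2 ratio the highest of them was Nr1d1 in both classes. It was number 4408 from the top of 7995 genes in fibroblast-like and 5019 of 7930 in myoepithelial-like nuclei, so many genes were lower too. Of the members, Hlf in fibroblast-like nuclei was at least 1.5 times lower, against 5.64% of all genes, and none was in myoepithelial-like nuclei, against 5.09%. Of all genes, 9.87% and 10.3% were at least 1.5 times higher in these classes, and no member was. In duct-like nuclei 5 members were higher and 3 lower, with Bhlhe41 at least 1.5 times higher, against 7.62% of all genes, and Per1 at least 1.5 times lower, against 8.64%. Those 2 rest on 16 and 14 UMIs in the pilocarpine library. Against the non-irradiated library, pilocarpine gave 4 of 8 measured members at least 1.5 times higher in fibroblast-like nuclei (7.72% of all genes) and 2 of 9 in myoepithelial-like nuclei (9.35%). None was at least 1.5 times lower, against 4.89% and 3.56% of all genes. In duct-like nuclei 0 of 5 members were higher by that fold (4.29%) and 0 lower (8.45%), and Per2 was not among the 5, with 29 and 16 UMIs.

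**Figure D4:**
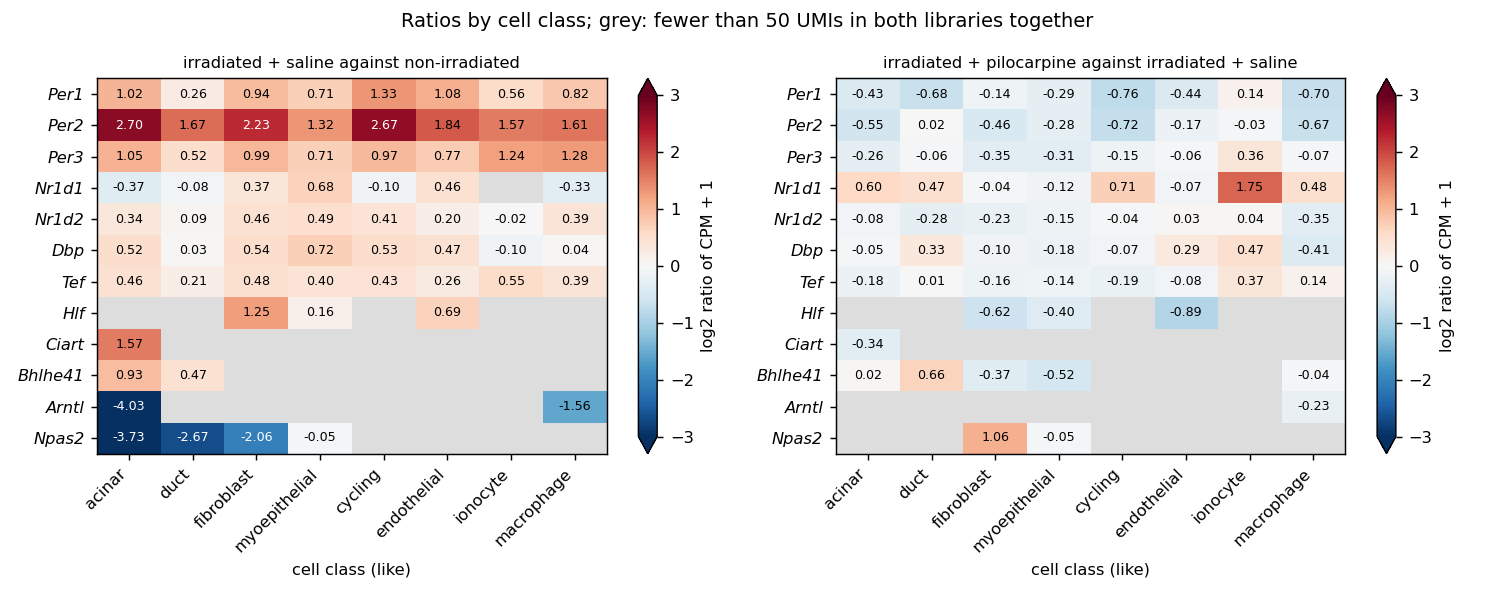
Log2 ratios of CPM + 1 of the members, Arntl and Npas2 in 8 classes, for saline against non-irradiated (left) and pilocarpine against saline (right), with the values printed and grey cells for pairs with fewer than 50 UMIs. The Per2 row on the left runs from 1.32 to 2.70, and Nr1d1 runs from -0.37 to 0.68 on the left and reaches 1.75 in ionocyte-like nuclei on the right.

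In the 4 smaller classes the Per genes again made up most of what passed that fold. With saline against non-irradiated, Per1, Per2 and Per3 were at least 1.5 times higher in cycling-like nuclei (8.4% of all genes), in endothelial-like nuclei together with Hlf (7.44%), and in macrophage-like nuclei (10.7%). In ionocyte-like nuclei Per2 and Per3 were (8.89%). With pilocarpine against saline, Per1 and Per2 were at least 1.5 times lower in cycling-like (4.04%) and macrophage-like nuclei (6.07%), and Hlf was in endothelial-like nuclei (7.55%). Nr1d1 was at least 1.5 times higher in cycling-like (4.38%) and ionocyte-like nuclei (11%). Per2 in cycling-like nuclei measured 17.7, 118 and 71.0 CPM without irradiation, with saline and with pilocarpine, a ratio of 6.66 for saline over non-irradiated (3.23 to 15.9), from 8 UMIs in the non-irradiated library.

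Nr1d1 differed in direction between classes. With saline it was lower than without irradiation in acinar-like nuclei, and higher in fibroblast-like nuclei (99 and 155 UMIs without irradiation and with saline) with a ratio of 1.30 (1.00 to 1.69). In myoepithelial-like nuclei it measured 68.4 and 110.4 CPM, with a ratio of 1.62 (1.13 to 2.32). In ionocyte-like nuclei it measured 69.8, 34.1 and 117 CPM without irradiation, with saline and with pilocarpine, from 25, 22 and 36 UMIs. Pilocarpine against saline gave a ratio of 3.44 there (1.97 to 6.14). Pilocarpine against non-irradiated gave higher Nr1d1 in 8 of 8 classes, with the interval above 1 in 3. Whether these differences between classes exceed those between repeated libraries was not tested.

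Hlf was the member with the sharpest difference between classes. It was found in fibroblast-like nuclei at 105, 252 and 164 CPM, in myoepithelial-like nuclei at 67.0, 75.2 and 56.8 CPM and in endothelial-like nuclei at 62.2, 101 and 54.0 CPM without irradiation, with saline and with pilocarpine. In fibroblast-like nuclei it was 2.40 times higher with saline than without irradiation (1.91 to 3.03) and 1.54 times lower with pilocarpine than with saline (1.30 to 1.83). In endothelial-like nuclei it was 1.86 times lower with pilocarpine than with saline (1.23 to 2.85). Acinar-like, duct-like, cycling-like, ionocyte-like and macrophage-like nuclei had 0 to 13 UMIs of Hlf in each library. In the non-irradiated library 0 UMIs of Hlf were found in duct-like nuclei, which allows up to 3.18 CPM by the rule of 3 counts (the exact Poisson interval reaches 3.91 CPM), and 0 in cycling-like, ionocyte-like and macrophage-like nuclei.

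Most other members were present in every class, and neighbouring classes in the order of levels mostly overlapped in their counting intervals. Tef was highest in acinar-like and lowest in duct-like nuclei in all 3 libraries, at 417 and 151 CPM without irradiation, 573 and 174 CPM with saline and 507 and 175 CPM with pilocarpine. Dbp had the same ends, at 148 and 51.9 CPM without irradiation and 213 and 53.0 CPM with saline. Per3 was lowest in duct-like nuclei in all 3 libraries, from 66.8 to 96.0 CPM. Its highest class was the fibroblast-like one without irradiation (151 CPM) and with saline (301 CPM), and the acinar-like one with pilocarpine (246 CPM). Per1 was highest in acinar-like nuclei in each library, but all 7 pairs of neighbouring classes overlapped in each. Neighbouring classes also overlapped in all 7 pairs for Per2, Nr1d1, Ciart and Bhlhe41. The highest class of Bhlhe41 was the ionocyte-like one without irradiation (27.9 CPM), the myoepithelial-like one with saline (39.9 CPM) and the duct-like one with pilocarpine (31.4 CPM).

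**Figure D5:**
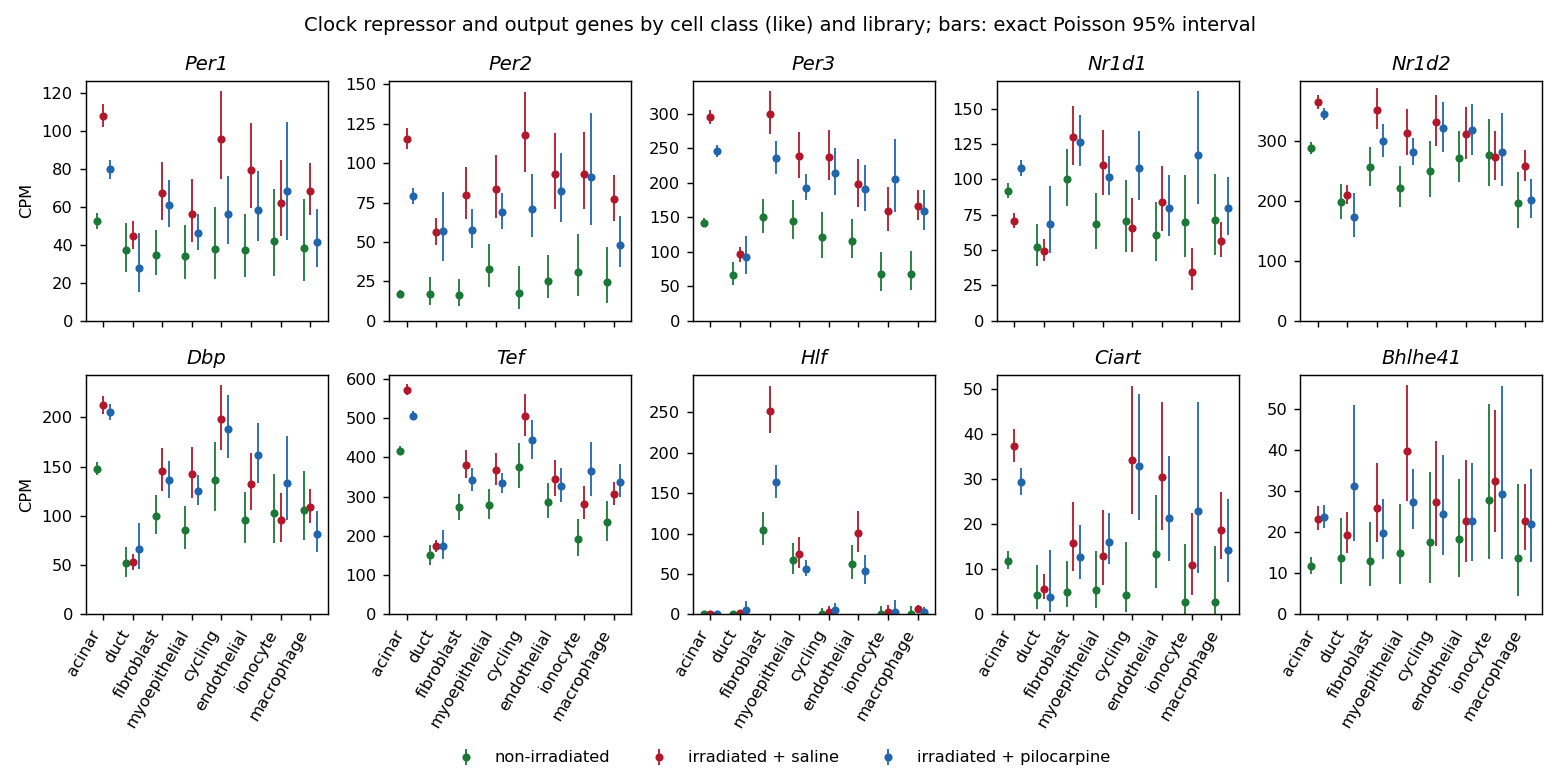
Levels in CPM of the 10 members in 8 classes, 1 point per library with its exact Poisson 95% interval. The non-irradiated points are lowest for Per2 and Per3 in all 8 classes, Hlf is above 50 CPM only in fibroblast-like, myoepithelial-like and endothelial-like nuclei, and Dbp and Tef are low in duct-like nuclei.

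RNA of acinar cells was also counted in other classes, which bears on how separate these classes are. Mucl2, a secreted acinar product, measured 47620 CPM in acinar-like and 37303 CPM in fibroblast-like nuclei of the non-irradiated library. With saline these were 57691 and 27037 CPM, and with pilocarpine 55082 and 43008 CPM. In duct-like nuclei Mucl2 measured 33581, 17696 and 61004 CPM without irradiation, with saline and with pilocarpine, so with pilocarpine it was above the acinar-like level. Its part in the ratios of the members in duct-like nuclei was not tested. With saline, acinar-like nuclei held 0.654 CPM of Hlf beside 252 CPM in fibroblast-like nuclei, which says nothing of free acinar RNA in other classes. How much of the members' UMIs outside acinar-like nuclei came from free acinar RNA was not tested. In the non-irradiated library Per2 in acinar-like nuclei, at 17.0 CPM (14.7 to 19.5), was no higher beyond counting error than in the class where it was lowest, fibroblast-like nuclei with 16.2 CPM. The level of the lowest class was also subtracted for each gene and library. In duct-like nuclei the members' median for saline against non-irradiated then went from 0.23 to -0.35. With saline, duct-like nuclei were themselves the lowest class for Per1, Per2, Per3, Nr1d2, Dbp, Tef, Ciart and Bhlhe41. Subtraction removed the whole duct-like level of these genes there, so none of their ratios could be positive. That change of sign was fixed by the method and does not bear on free RNA.

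Arntl was lower with saline than without irradiation in 8 of 8 classes, with the interval below 1 in 6, and Npas2 in 8 of 8, with the interval below 1 in 7. The interval of Arntl included 1 in myoepithelial-like nuclei, with a ratio of 0.716 (0.277 to 1.81) from 10 and 12 UMIs. In ionocyte-like nuclei it did so too, with a ratio of 0.397 (0.0993 to 1.45) from 5 and 7 UMIs. Npas2 in myoepithelial-like nuclei, where it was most abundant, measured 133, 128 and 124 CPM. There its ratio of saline to non-irradiated was 0.965 (0.728 to 1.28), while Per2 in the same nuclei was 2.54 times higher. In fibroblast-like nuclei Npas2 measured 62.6, 14.2 and 30.7 CPM, and Arntl 39.4, 2.51 and 8.30 CPM. In macrophage-like nuclei Arntl measured 79.2, 26.2 and 22.1 CPM, the highest of the classes in each library.

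Genes known as outputs of the clock were described from a list of 12. In acinar-like nuclei, with saline against non-irradiated, 9 of 12 were higher, 4 of them at least 1.5 times (Usp2, Wee1, Alas1 and Klf10), against 4.79% of all genes. Ppara was at least 1.5 times lower, against 4.52%, and the median log2 ratio was 0.31. Klf10, a transcription factor, measured 15.8, 42.0 and 46.7 CPM. Usp2, a deubiquitinase, measured 56.3, 130 and 103 CPM, with the same order of libraries as the Per genes. Between pilocarpine and saline none of the 12 reached 1.5 times in either direction, against 1.71% of all genes higher and 1.2% lower.

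Targets of the glucocorticoid receptor and immediate early genes were counted as 2 further lists. Glucocorticoids and the signals that switch on immediate early genes are both known to induce Per genes. Of 10 measured genes in the glucocorticoid list, 9 were higher with saline than without irradiation in acinar-like nuclei and 6 at least 1.5 times, against 4.79% of all genes, with a median log2 ratio of 0.61. Pdk4 was lower, at 6.04 and 4.30 CPM, and 2 of the 12 genes listed were not measured. With pilocarpine against saline 3 were at least 1.5 times lower, against 1.2% of all genes, and the median was -0.31. Dusp1, a phosphatase, measured 7.59, 26.3 and 5.17 CPM, and the kinase gene Sgk1 measured 4.74, 11.1 and 6.95 CPM. Of 9 measured immediate early genes all 9 were higher with saline than without irradiation, 5 of them at least 1.5 times, against 4.79% of all genes, with a median of 0.63. With pilocarpine against saline all 9 were lower, 3 of them at least 1.5 times, against 1.2% of all genes, with a median of -0.47. Ier3 measured 2.50, 14.4 and 6.39 CPM, and Jun gave 90, 291 and 148 UMIs. Fos gave 10, 27 and 6 UMIs and was not measured, and neither were 8 other genes of the list. The part of either group in the levels of the members was not tested.

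The genes most like the members were ranked by Pearson's r with the mean of 9 members over 24 points, 3 libraries in 8 classes, after the mean of each class was subtracted. The points share libraries and depth, so r is a description. Among 1036 genes ranked, the highest were Bpifa2 (0.93), Exoc4 (0.92), Mup5 (0.92), Glul (0.91) and Usp2 (0.91). In acinar-like nuclei Bpifa2, a secreted salivary protein, measured 2.50, 126 and 35.0 CPM without irradiation, with saline and with pilocarpine, and Mup5 69.2, 639 and 331 CPM. Both were also counted in other classes. In macrophage-like nuclei Bpifa2 measured 0, 71.6 and 36.4 CPM and Mup5 51.9, 282 and 245 CPM in that order. How much of their r came from acinar RNA counted in other classes was not tested. Among the members r was 0.96 for Per2, 0.95 for Per3 and 0.93 for Ciart, which are part of that mean, and 0.34 for Nr1d1. For Arntl r was -0.87.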

How the data were processed

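Nuclei were isolated from frozen glands, stained with DAPI, sorted and processed with a droplet kit for 3' ends, per the labels' protocols. The deposited matrices hold counts, UMIs per gene and barcode that the authors did not normalize. Cell Ranger 7.0.1 and GRCm38 are named per the submitters' processing notes. Whether intronic reads were counted is not given in the sources used here.

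Nuclei with a minimum of 500 genes and a maximum of 5% mitochondrial UMIs were clustered together with scanpy 1.11.5 and leidenalg 0.10.2 (3000 variable genes, 30 components, 15 neighbours, resolution 1), without integration and without any listed gene. A cluster was named where its markers had, in the median, 0.65 or more of the level in the highest cluster, 3 or more of them singly did, and its 10 leading genes held no more markers of another type. The names may differ from those of the study. Scrublet (expected rate 6%) called 0 doublets in each library, so it did not work here and doublets stayed in. UMIs were summed per class and library, ratios are of CPM, and log2 ratios and the fold used CPM + 1. A gene counted as measured if 2 libraries together held 50 or more UMIs of it, and 1.5 times was the fold used. The ratio code was tested on simulated counts. Library totals were 26417958, 29946943 and 34322111 UMIs. Gene positions come from GENCODE on GRCm38.

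The members, the marker level and all lists were chosen with earlier results of these data known. Named genes are the 10 members, the activators and loop partners with Cry1, Cry2 and Bhlhe40, the 2 genes with the largest ratios of each other list, and the 5 genes most like the members. Fos, Npas2 and Arntl outside acinar-like nuclei, Mucl2, and genes counted past the fold were named after their values were seen. One gene of these lists is not reported here. The alternatives covered filters, scaling, depth, doublets, free RNA and clustering.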

Additional observations from a re-analysis of the deposited data

Results flagged for a closer look

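Nr1d1 was picked out because its ratio of saline to non-irradiated had counting intervals on opposite sides of 1 in different classes. It was 0.771 in acinar-like nuclei, 1.30 in fibroblast-like nuclei and 1.62 in myoepithelial-like nuclei. Tef was picked out for the same reason between the irradiated libraries, with a ratio of pilocarpine to saline of 0.885 in acinar-like and 1.29 in ionocyte-like nuclei. Neither difference between classes was tested, since each group has 1 library.

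Nuclei that entered no class showed the members too. In the clusters without a name, the ratio interval lay above 1 for 9 of the 10 members with saline against non-irradiated and for 10 of 10 with pilocarpine. The share of all genes with such an interval was not counted, here or in the barcodes below, so these counts have no background. The clusters also mix cell types in unlike shares. Cluster 11, led by Smgc, held 641, 20 and 38 nuclei without irradiation, with saline and with pilocarpine. Per2 in those clusters measured 19.7, 88.6 and 75.8 CPM without irradiation, with saline and with pilocarpine. In barcodes left out for having fewer than 500 genes, the interval lay above 1 for 3 members with saline (Per2, Per3 and Ciart) and for 2 with pilocarpine (Per2 and Dbp). Per2 there measured 18.9, 80.1 and 42.6 CPM. Tef lay below 1 in these barcodes with saline (ratio 0.800, interval 0.669 to 0.954) and with pilocarpine (0.603, 0.506 to 0.718), and Per1 with pilocarpine (0.665, 0.449 to 0.978).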

How the results depend on the processing

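Each group has 1 library, so intervals cover counting error only and no call rests on a test. No paired analysis was possible because no group holds more than 1 library. Equal weight to each cluster gave no value in fibroblast-like and myoepithelial-like nuclei, which are 1 cluster each. In acinar-like nuclei the median log2 ratio of the members kept its sign under all 14 alternatives in each comparison, from 0.61 to 1.39 for saline against non-irradiated, and 5 to 7 members were at least 1.5 times higher. One alternative, acinar-like nuclei without cluster 16, was chosen after seeing the data and left that median at 0.94. Over all classes and comparisons, 143 medians stayed between the median of the members' lower and that of their upper counting bounds, and 10 did not. Those bounds come from CPM ratios and are as wide as is typical of a single member, so they are no counting interval of the median. As for the counts of members, 82 stayed within 1.5 times of the value reported and 20 did not. Of the values of single members in acinar-like nuclei, 320 stayed within their interval and 58 did not. For saline against non-irradiated, Bhlhe41 ranged from 0.61 to 2.30 and Per2 from 2.22 to 5.05, both highest with free RNA subtracted. The non-irradiated level of Per2 left after subtraction lies within counting error of 0. For Bhlhe41, acinar-like nuclei were themselves the lowest class without irradiation. Subtraction removed its whole level there, so the 2.30 follows from the method. Apart from values fixed by that subtraction, no cause was tested.

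In acinar-like nuclei, the median for saline against non-irradiated was 0.61 with a pseudocount of 10 CPM and 1.39 with free RNA subtracted. For pilocarpine against saline it was -0.23 with TMM size factors (edgeR 4.0.16), -0.26 with free RNA subtracted and -0.27 with equal weight to each cluster. For pilocarpine against non-irradiated it was 0.83 in nuclei with 1000 to 3000 UMIs and 1.02 with free RNA subtracted. Elsewhere, with free RNA subtracted, the median for saline against non-irradiated was -0.35 in duct-like and 1.25 in fibroblast-like nuclei. The duct-like value could not be positive, because duct-like nuclei were the lowest class with saline for most members. With each library clustered alone, the median for pilocarpine against saline in duct-like nuclei was 0.90, and it kept its sign under 7 of 13 alternatives.

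The number of members at least 1.5 times higher moved as follows. In duct-like nuclei, saline against non-irradiated gave 2 in place of 1 with a minimum of 1000 genes, TMM size factors or equal weight to each cluster. Pilocarpine against non-irradiated gave there, in place of 0, 1 with a minimum of 1000 genes, 2 with a minimum of 10 UMIs, 1 in nuclei with 1000 to 3000 UMIs and 7 with each library clustered alone. In fibroblast-like nuclei, saline against non-irradiated gave 8 in place of 4 with free RNA subtracted. Pilocarpine against non-irradiated gave 2 in place of 4 in nuclei thinned to 800 UMIs and with the highest doublet scores removed. In myoepithelial-like nuclei, saline against non-irradiated gave, in place of 5, 3 with the mean over nuclei, 2 in thinned nuclei and 3 in nuclei with 1000 to 3000 UMIs. Pilocarpine against non-irradiated gave there, in place of 2, 5 with a minimum of 1000 genes or free RNA subtracted, 1 with a pseudocount of 10 CPM, in nuclei with 1000 to 3000 UMIs or with each library clustered alone, and 0 in thinned nuclei or with the highest doublet scores removed. Of single members in acinar-like nuclei, those that changed sign were small: Nr1d2 under 1 and Bhlhe41 under 3 of the 14 alternatives for pilocarpine against saline, and Nr1d1 under 1 for pilocarpine against non-irradiated.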
